A study of Mus musculus with 7 samples.

Results

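The Gimap genes encode the GTPases of immunity-associated proteins, a family of guanine nucleotide binding proteins that share the AIG1 domain and lie side by side in a single cluster in mammals. All 8 mouse genes with a Gimap number in the deposited tables (Gimap1, Gimap3, Gimap4, Gimap5, Gimap6, Gimap7, Gimap8 and Gimap9) were taken as members by their symbol, out of 53458 genes measured. No Gimap gene was left out by its level, but the family was chosen with earlier results of these data known. Their levels were read in LT-HSCs, the long-lived haematopoietic stem cells (HSCs) of the bone marrow that renew themselves and give rise to all blood lineages. The groups were Srp72+/- mice, which carry 1 altered copy of Srp72, and wild-type (WT) mice, labelled Srp72+/+. Both groups were aged mice of the C57/BL6 strain, with the age not further given. There were 3 Srp72+/- libraries and 4 WT libraries, and the series describes them as 3 and 4 mice, so that each library stands for 1 mouse. In both groups the cells were sorted as negative for Ter119, B220, CD3, Mac1, Gr1, Flt3 and CD48 and positive for Sca1, cKit and CD150. The kind of Srp72 allele, the sex of the mice and the relation of the controls to the Srp72+/- mice were not given in the sources used here.

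GIMAP proteins are best known from lymphocytes, where they are abundant and where several of them govern survival. They are anchored to, or recruited to, membranes of lysosomes, mitochondria, the endoplasmic reticulum or lipid droplets, and they assemble into filaments or pairs when they bind GTP. Loss of Gimap5 in rats and mice causes a loss of T cells, and mice without Gimap5 also have defects in haematopoietic stem and progenitor cells. The comparison of the genotypes asks what a heterozygous change of Srp72, a protein of the signal recognition particle that brings ribosomes to the endoplasmic reticulum, goes with in aged LT-HSCs. Hlf, a transcription factor gene of stem cells, and a list of T cell genes were read beside the family, since the family is expressed in stem cells and in lymphocytes.

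The cluster lies on chromosome 6 between positions 48647234 and 48770851 of GRCm38, a span of 123.6 kb, with 6 members on the plus strand and 2, Gimap6 and Gimap3, on the minus strand. In the order of the chromosome the members are Gimap8 (chr6:48647234-48660875), Gimap9 (chr6:48676129-48679114), Gimap4 (chr6:48684549-48692060), Gimap6 (chr6:48701582-48708225), Gimap7 (chr6:48718621-48724636), Gimap1 (chr6:48739054-48743795), Gimap5 (chr6:48746197-48754210) and Gimap3 (chr6:48764464-48770851). The antisense gene Gimap1os overlaps Gimap1, and Gm28053, a read-through gene model, runs from the start of Gimap7 into Gimap5. The strand setting of the counting was not given in the sources used here. How reads were divided between Gimap1 and Gimap1os, and between Gm28053 and the genes it spans, is therefore uncertain. Gimap3 and Gimap5 are close copies of one another, and reads they share were divided by the authors' tool, so their separate values are uncertain too.

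The 250 bases before the start of 5 members are shown because these members differed in how their levels moved between libraries, as described below. They are RefSeq sequences of GRCm38.p6, written 5′ to 3′ on the strand of the gene. Capitals mark AGGAAG, the core of many sites for ETS factors, TGTGGT, the core of sites for RUNX factors, and TATAAA, the letters of a TATA box, each with its reverse complement. The first 3 windows belong to the members with the highest pooled correlation with Hlf over the 6 libraries other than WT 2, each of them lowest in WT 2. They are Gimap5 (chr6:48745947-48746196, plus strand), Gimap6 (chr6:48708245-48708494, minus strand) and the upstream start of Gimap8 (chr6:48646984-48647233, plus strand). The last 2 belong to Gimap3 (chr6:48770852-48771101, minus strand), which was fitted higher in Srp72+/- cells, and Gimap7 (chr6:48718371-48718620, plus strand), which was highest in WT 2.
Gimap5: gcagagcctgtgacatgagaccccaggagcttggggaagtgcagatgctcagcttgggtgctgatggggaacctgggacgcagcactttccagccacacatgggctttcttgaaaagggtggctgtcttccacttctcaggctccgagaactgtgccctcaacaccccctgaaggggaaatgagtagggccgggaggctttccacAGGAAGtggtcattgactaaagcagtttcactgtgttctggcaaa
Gimap6: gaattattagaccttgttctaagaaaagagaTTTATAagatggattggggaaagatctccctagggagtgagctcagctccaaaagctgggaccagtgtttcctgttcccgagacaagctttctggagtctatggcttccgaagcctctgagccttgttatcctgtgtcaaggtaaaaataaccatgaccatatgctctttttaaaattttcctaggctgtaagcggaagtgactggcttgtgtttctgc
Gimap8: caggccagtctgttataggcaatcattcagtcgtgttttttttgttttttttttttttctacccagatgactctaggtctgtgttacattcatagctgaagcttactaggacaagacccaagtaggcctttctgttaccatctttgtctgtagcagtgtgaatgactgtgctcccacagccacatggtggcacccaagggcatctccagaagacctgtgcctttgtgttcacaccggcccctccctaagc
Gimap3: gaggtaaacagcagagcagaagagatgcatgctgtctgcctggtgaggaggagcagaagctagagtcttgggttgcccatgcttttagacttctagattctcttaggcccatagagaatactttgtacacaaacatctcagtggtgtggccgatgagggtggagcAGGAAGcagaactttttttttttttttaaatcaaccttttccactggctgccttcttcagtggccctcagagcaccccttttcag
Gimap7: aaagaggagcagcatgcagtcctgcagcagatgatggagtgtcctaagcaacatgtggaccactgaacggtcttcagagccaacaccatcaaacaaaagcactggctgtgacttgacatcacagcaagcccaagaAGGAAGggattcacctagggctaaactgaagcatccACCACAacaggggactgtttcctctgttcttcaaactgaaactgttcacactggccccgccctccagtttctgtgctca
All 8 members matched the RefSeq table by symbol, with 9 windows because Gimap8 has a second start further inside. The Gimap8 window shown lies before the start of the transcript Gimap8-202. This transcript had 361 reads over the 7 libraries and was at 0 in Srp72+/- 1 and WT 2. Gimap8-201, with 3207 reads, starts at position 48647361, directly after the second window, which is not shown. The ETS letters stood in 7 of the 9 windows, belonging to 7 of the 8 genes (for Gimap8 in its second window), against 29.5% of 32851 windows of the same length over all genes. Gimap6, the most abundant member, was the gene without AGGAAG or its reverse complement. Its window does hold cggaag, which differs from AGGAAG in the first letter only and was not counted. It also held the only TATA match of the 9 windows (12.4% of all windows), near the end of the window farthest from the start of the gene. The RUNX letters stood in 3 windows, those of Gimap4, Gimap7 and Gimap1, against 14% of all windows. AGATAA, the letters of a GATA site, stood in 0 of the 9 against 10% of all windows. Both strands were read, and a match is a run of letters and not a shown binding site.

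**Figure D1:**
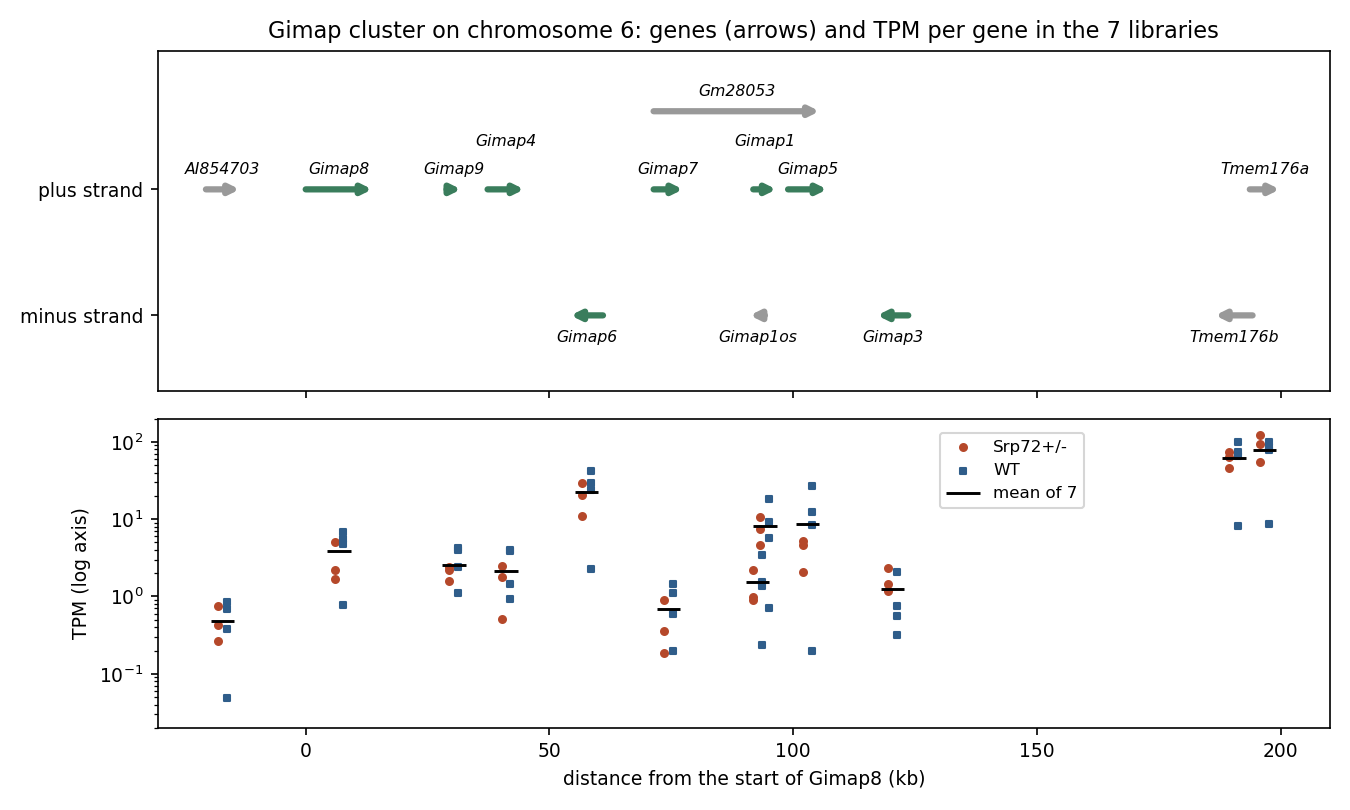
The upper panel draws the 8 Gimap genes (green) and neighbouring or overlapping genes (grey) as arrows along chromosome 6, in kb from the start of Gimap8. The lower panel gives TPM in each library on a log axis (red circles Srp72+/-, blue squares WT, black line the mean of 7): Gimap6 is highest of the family at a mean of 22.5 TPM, and 1 WT library lies far below the rest for Gimap8, Gimap6, Gimap1 and Gimap5 and for Tmem176b and Tmem176a.

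The libraries held between 18054322 and 35247472 estimated reads, and levels are given as CPM, the counts of a gene scaled to the size of its library after TMM correction. On this scale 3 counts equal 0.091 to 0.192 CPM. Srp72 itself had 71.9, 45.7 and 109.8 CPM in Srp72+/- 1, 2 and 3, against 99.6, 136.6, 103 and 88.4 CPM in WT 1, 2, 3 and 4. Srp72+/- 3 exceeded all WT libraries but WT 2, so that the groups overlapped, and the log2 fold change was -0.50 ± 0.32 (SE, edgeR's quasi-likelihood test, adjusted p = 0.9998, unadjusted p = 0.159). The level of the targeted gene therefore does not set Srp72+/- 3 apart from WT. WT 2 went against its label as LT-HSCs: each of 8 HSC genes was lower there than in the other 6 libraries. Summed over these 8 genes the level was 760 to 1320 CPM in Srp72+/- libraries and 65.0 CPM in WT 2, against 1270 to 1763 CPM in the other WT libraries. Slamf1, the gene of the sort marker CD150, had 31.3 to 70.9 CPM in Srp72+/- libraries and 4.67 CPM in WT 2, and the other WT libraries had 61.2 to 73.0 CPM. Neutrophil genes summed to 29669 CPM in WT 2 and red cell genes to 6345 CPM, in each case above every other library. Srp72+/- 1 stood next to it, with 9541 CPM of neutrophil genes and 4480 CPM of red cell genes. The genotype comparisons of the members, Hlf and the gene lists are therefore given with all 7 libraries and again without WT 2.

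Compared per transcript length, in TPM over all 7 libraries, Gimap6 was the most abundant member at 22.5 ± 12.9 TPM (SD, n = 7). Gimap6 binds the autophagy protein GABARAPL2. Gimap5, at 8.53 ± 9.01 TPM, is the lysosomal member on which T cell survival depends, and Gimap1, at 8.08 ± 5.56 TPM, is needed by mature T and B cells. Gimap8 averaged 3.82 TPM, Gimap9 2.56 TPM, Gimap4 2.15 TPM, Gimap3 1.23 TPM and Gimap7 0.686 TPM. These are totals per gene that include non-coding transcripts, so the order is not one of coding transcripts. The coding transcript of Gimap5, Gimap5-201, held 18.9% to 84.8% of the gene's TPM by library, with a median of 45.5%. All transcripts of Gimap8 were coding. Gimap6 exceeded Gimap5 in 7 of 7 libraries, by 1.90 ± 0.82 on the log2 scale. Gimap1 exceeded Gimap8 in 5 of 7, by 0.92 ± 0.87. The other 5 pairs of neighbours in this order, such as Gimap5 and Gimap1 or Gimap4 and Gimap3, did not differ beyond the spread of their difference over libraries. Gimap6 supplied 43 ± 11% of the family's summed TPM (n = 7), and its share was between 41.1% and 52.4% in every library but WT 2, where it was 20.2%. In WT 2 the largest share, 35.6%, was that of Gimap4, which supplied 1.78% to 6.38% in the other 6 libraries. Hlf was at 244 ± 119 TPM, above each member.

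**Figure D2:**
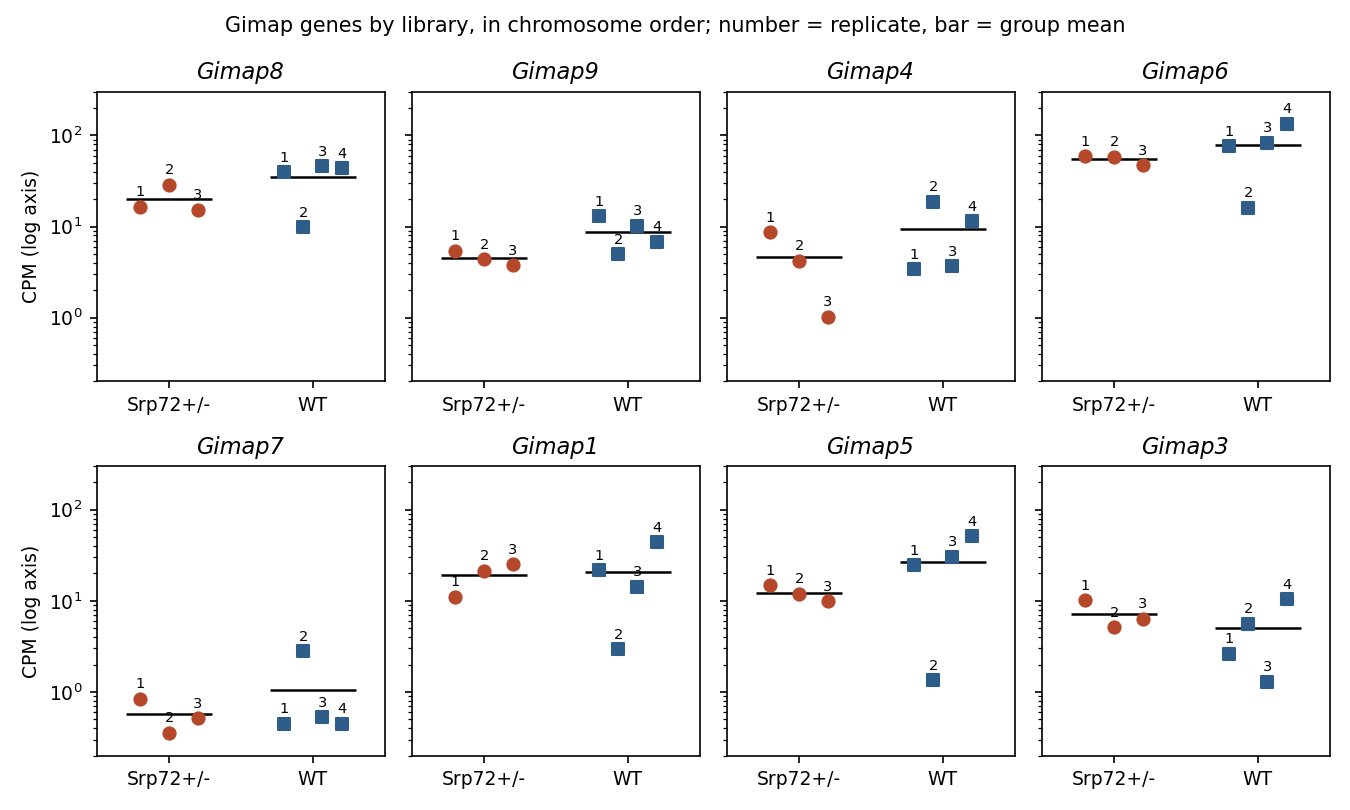
Each panel shows 1 Gimap gene in CPM on a log axis, with a point for each library (red circles Srp72+/-, blue squares WT, number = replicate) and a line at the group mean. WT 2 is the lowest point for Gimap8, Gimap6, Gimap1 and Gimap5 and the highest for Gimap4 and Gimap7.

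No Gimap gene passed the test between the genotypes, and neither did any other gene. All 8 members were tested, 0 of 8 were called, and 0% of the 20314 genes tested were called (edgeR's quasi-likelihood test, Benjamini-Hochberg adjusted p, threshold 0.05). At an unadjusted p under 0.05 stood 365 genes and 0 members, and DESeq2 called 9 genes and 0 members. In fitted values 7 of the 8 members were lower in Srp72+/- cells and 1, Gimap3, was higher, and 50.7% of all genes tested were lower. The median log2 fold change of the 8 members was -0.83, beside -0.01 over all genes tested. The groups did not overlap for 0 of the 8 members, and for 3.57% of all genes tested. In bulk samples, fewer cells of a type and less RNA per cell cannot be told apart.

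Without WT 2, the levels of Gimap5, Gimap6, Gimap8 and Gimap9 were lower in every Srp72+/- library than in every remaining WT library, that is for 4 of the 7 members still tested, against 5.33% of the 19856 genes tested. The same 4 had an unadjusted p under 0.05 and a lower fitted value, against 2.23% of genes tested. None of the 4 was called after adjustment over all genes (edgeR's quasi-likelihood test, adjusted p between 0.890 and 0.977). Neighbouring genes of 1 cluster share libraries and may share reads, so the 4 are not 4 independent observations. In fitted values 6 of the 7 members were lower in Srp72+/- cells, with 46.9% of all genes tested, and the median of the 7 was -0.84, beside 0.04 over all genes tested. Leaving out Srp72+/- 1 as well as WT 2 gave these 4 members log2 fold changes of -1.70 (Gimap5), -0.89 (Gimap6), -0.96 (Gimap8) and -1.30 (Gimap9), with an adjusted p of 0.9999 each in edgeR.

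Gimap5 had the lowest fitted value of the family. It was at 14.8, 11.9 and 9.98 CPM in Srp72+/- 1, 2 and 3, against 24.8, 1.34, 30.4 and 51.2 CPM in WT 1, 2, 3 and 4. The Srp72+/- libraries lay close together, and the WT libraries held both the highest and the lowest values of the 7. The group means were 12.2 ± 2.4 CPM in Srp72+/- cells and 26.9 ± 20.5 CPM in WT cells (SD, n = 3 and n = 4). The log2 fold change was -1.14 ± 0.88 (SE, 95% interval -3.15 to 0.87, edgeR's quasi-likelihood test, adjusted p = 0.9998). Without WT 2 the WT mean was 35.4 ± 13.9 CPM and the log2 fold change -1.53 ± 0.35 (95% interval -2.31 to -0.75, adjusted p = 0.890). Part of the Gimap5 signal in WT 4 came from short non-coding transcripts of the gene: Gimap5-202 and Gimap5-203 had 9.44 and 9.84 TPM there, and the coding transcript Gimap5-201 had 5.08 TPM. Gimap5-201 alone was at 1.16, 2.32 and 1.62 TPM in Srp72+/- 1, 2 and 3, against 4.37, 0.165, 5.60 and 5.08 TPM in WT 1, 2, 3 and 4. For the coding transcript, as for the gene, WT 2 was lowest and the other WT libraries lay above all Srp72+/- libraries, while the order within each genotype differed.

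Gimap6, the most abundant member, was at 58.9, 58.6 and 47.2 CPM in Srp72+/- 1, 2 and 3, against 76.8, 16.1, 83.6 and 134 CPM in WT 1, 2, 3 and 4. Again all Srp72+/- libraries fell between WT 2 and the other WT libraries. The means were 54.9 ± 6.7 CPM in Srp72+/- cells and 77.7 ± 48.4 CPM in WT cells (SD, n = 3 and n = 4), and without WT 2 the WT mean was 98.2 ± 31.5 CPM. The log2 fold change was -0.50 ± 0.57 with all libraries and -0.84 ± 0.27 without WT 2 (SE, edgeR's quasi-likelihood test, adjusted p = 0.9998 and 0.977). Most of its reads were assigned to the coding transcripts Gimap6-201 and Gimap6-202. In TPM, however, the non-coding transcript Gimap6-204 held 0% to 46.6% of the gene by library, with a median of 32.7%. It had 372 reads in total, so the TPM of Gimap6 include a non-coding part.

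Gimap8, whose protein carries several GTPase domains in tandem and acts in B cell homeostasis, was at 16.5, 28.7 and 15.4 CPM in Srp72+/- 1, 2 and 3. In WT 1, 2, 3 and 4 it was at 39.6, 9.78, 45.9 and 43.5 CPM. The WT libraries other than WT 2 lay close together, at 43.0 ± 3.2 CPM (SD, n = 3), and each Srp72+/- library lay below them. The log2 fold change was -0.78 ± 0.52 with all libraries and -1.09 ± 0.30 without WT 2 (SE, edgeR's quasi-likelihood test, adjusted p = 0.9998 and 0.977). Gimap9 was at 5.45, 4.37 and 3.79 CPM in Srp72+/- 1, 2 and 3, against 13.0, 4.99, 10.3 and 6.83 CPM in WT 1, 2, 3 and 4. Its level in WT 2 fell inside the range of the Srp72+/- libraries, which all lay below the other WT libraries. Its log2 fold change was -0.95 ± 0.45 with all libraries and -1.14 ± 0.42 without WT 2 (SE, adjusted p = 0.9998 and 0.977 in edgeR). With all libraries it had the smallest unadjusted p of the family, 0.0666 in edgeR and 0.0276 in DESeq2.

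Gimap1 varied within both genotypes without separating them. It was at 11.1, 21.4 and 25.3 CPM in Srp72+/- 1, 2 and 3, against 21.8, 2.94, 14.3 and 43.8 CPM in WT 1, 2, 3 and 4. Srp72+/- and WT libraries alternated in this order also without WT 2. The log2 fold change was -0.10 ± 0.74 (SE, 95% interval -1.79 to 1.59, adjusted p = 0.9998 in edgeR), and without WT 2 it was -0.46 ± 0.46 (adjusted p = 0.979 in edgeR). The reads of Gimap1 were assigned to different coding transcripts in different libraries. Gimap1-201 had 271 reads in WT 1 and 176 reads in WT 3 and was at 0 in the other 5 libraries. Gimap1-205 had between 45.5 and 722 reads in 6 libraries and was at 0 in WT 1.

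Gimap3, a close relative of Gimap5 that is known from mice as a regulator of mitochondrial DNA segregation, was the member with a higher fitted value in Srp72+/- cells. It was at 10.2, 5.13 and 6.37 CPM in Srp72+/- 1, 2 and 3, against 2.63, 5.63, 1.30 and 10.4 CPM in WT 1, 2, 3 and 4. WT 1 and WT 3 lay below all Srp72+/- libraries and WT 4 above them. The log2 fold change was 0.54 ± 0.69 with all libraries and 0.60 ± 0.73 without WT 2 (SE, adjusted p = 0.9998 and 0.985 in edgeR). Gimap4, which promotes the death of T cells, was at 8.74, 4.24 and 1.03 CPM in Srp72+/- 1, 2 and 3, against 3.42, 18.7, 3.69 and 11.5 CPM in WT 1, 2, 3 and 4. Its highest library was WT 2, at 506% of the median of the other WT libraries. Its log2 fold change was -1.0 ± 0.85 with all libraries and -0.41 ± 0.78 without WT 2 (SE, adjusted p = 0.9998 and 0.987 in edgeR). Gimap7, whose human counterpart pairs with another family member to hydrolyse GTP, rested on few reads: 16, 8 and 17 reads in Srp72+/- 1, 2 and 3, against 8, 44, 11 and 10 reads in WT 1, 2, 3 and 4. The 44 reads of WT 2 made 2.81 CPM, and the other 6 libraries lay between 0.357 and 0.847 CPM. Its log2 fold change was -0.87 ± 0.87 (SE, adjusted p = 0.9998 in edgeR), and without WT 2 it had too few reads to be tested.

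**Figure D3:**
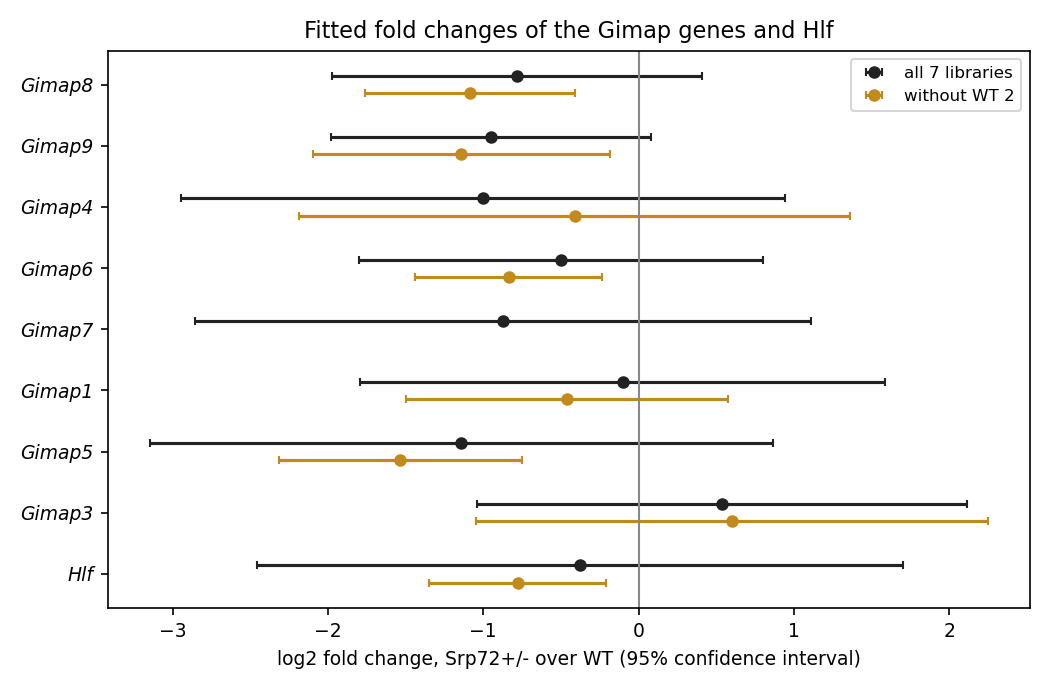
Points are fitted log2 fold changes of each Gimap gene and of Hlf, Srp72+/- over WT, and bars are 95% confidence intervals from edgeR (black all 7 libraries, ochre without WT 2). With all libraries every interval spans 0, and without WT 2 the intervals of Gimap8, Gimap9, Gimap6, Gimap5 and Hlf lie below 0 before adjustment over all genes.

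Relative to the median of the other WT libraries, 5 members were lower in WT 2 and 3 were higher, a division made after their values were seen. WT 2 held 4.42% of Gimap5, 13.5% of Gimap1, 19.3% of Gimap6, 22.5% of Gimap8 and 48.6% of Gimap9. It held 214% of Gimap3, 506% of Gimap4 and 626% of Gimap7. The division is weak for Gimap3 and Gimap9. Gimap3, at 5.63 CPM in WT 2, lay within the range of the other WT libraries, 1.30 to 10.4 CPM. Gimap9, at 4.99 CPM in WT 2, lay within the range of the Srp72+/- libraries, 3.79 to 5.45 CPM. WT 2 was below each of the other 6 libraries for 4 of the 8 members, as for 26.6% of the genes tested, and above each of them for 2, as for 22.8%. The neighbouring genes Tmem176b and Tmem176a, which encode membrane proteins of intracellular vesicles, were at 19.4% and 18.9%, and AI854703 on the other side of the cluster was at 12.0%. Gimap1os, antisense to Gimap1, was at 24.7%. Hlf was at 2.36%, a larger drop than that of any member. Summed over the 5 members, the level was 107, 125 and 102 CPM in Srp72+/- 1, 2 and 3, against 176, 35.2, 184 and 279.7 CPM in WT 1, 2, 3 and 4. Summed over the 3 members it was 19.8, 9.73 and 7.91 CPM in Srp72+/- 1, 2 and 3, against 6.50, 27.1, 5.52 and 22.3 CPM in WT 1, 2, 3 and 4. The sum of the 5 members was thus lower in every Srp72+/- library than in every WT library but WT 2, and the sum of the 3 members overlapped between the genotypes.

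Hlf was at 272, 388 and 285 CPM in Srp72+/- 1, 2 and 3, against 558, 13.2, 408 and 657 CPM in WT 1, 2, 3 and 4. Its log2 fold change was -0.38 ± 0.91 with all libraries and -0.78 ± 0.25 without WT 2 (SE, adjusted p = 0.9998 and 0.977 in edgeR's quasi-likelihood test), and without WT 2 its groups did not overlap either. For each 100 CPM of Hlf, the 8 members summed to 46.5, 34.8 and 38.5 CPM in Srp72+/- 1, 2 and 3, against 32.7, 473, 46.5 and 46.0 CPM in WT 1, 2, 3 and 4. Outside WT 2 this ratio overlapped between the genotypes, although the sums themselves did not: they were 126.5, 135 and 109.6 CPM in Srp72+/- 1, 2 and 3, against 182, 189.9 and 302 CPM in WT 1, 3 and 4. Over the 6 libraries other than WT 2, the correlation of log2 CPM with Hlf was r = 0.87 for Gimap6 (rho = 0.77, exact permutation p = 0.0208 for r, adjusted 0.167 over 16 relations). For Gimap8 it was r = 0.87 (exact permutation p = 0.0528, adjusted 0.211) and for Gimap5 r = 0.83 (exact permutation p = 0.0486, adjusted 0.211). Over the 4 libraries left without WT 4 and Srp72+/- 1, the 2 farthest from the median of Hlf, these were 0.80, 0.82 and 0.73. Hlf and these members were all lower in the remaining Srp72+/- libraries than in the remaining WT libraries. So few libraries cannot show how stable the relations are. For Gimap1 r was 0.66 (exact permutation p = 0.133, adjusted 0.427), and it turned to -0.30 without those 2, so this relation rests on them. With the mean of each genotype removed, r was 0.57 for Gimap6, 0.51 for Gimap8 and 0.33 for Gimap5 (exact permutation within genotypes over 36 pairings, p = 0.389, 0.306 and 0.611, adjusted 0.889 each), so the pooled values include the shared difference between the genotypes. For Gimap9 r was 0.62 pooled and -0.40 within genotypes. No relation with Hlf passed the adjustment.

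**Figure D4:**
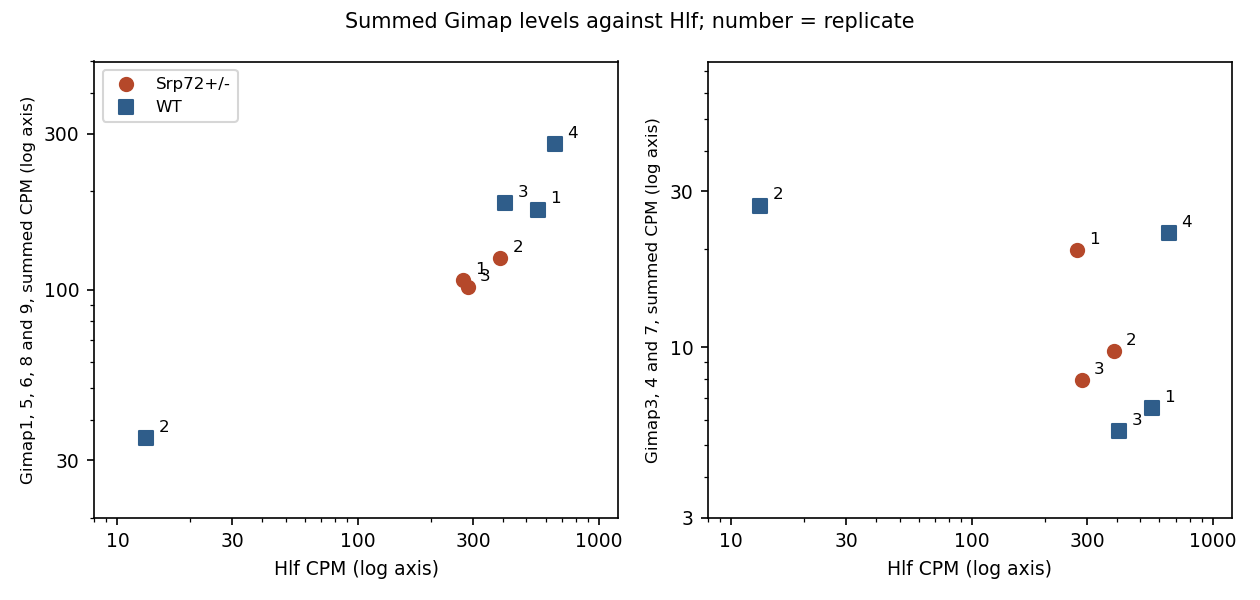
Each point is 1 library (red circles Srp72+/-, blue squares WT, number = replicate), with Hlf in CPM on the x axis and summed Gimap levels in CPM on the y axis, both log axes. The left panel sums Gimap1, Gimap5, Gimap6, Gimap8 and Gimap9, where WT 2 is at 35.2 CPM with Hlf at 13.2 CPM, and the right panel sums Gimap3, Gimap4 and Gimap7, where WT 2 is the highest library at 27.1 CPM. The members were divided by whether WT 2 lay below or above the median of the other WT libraries. The low and high places of WT 2 in the panels follow from this division.

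By Pearson's r of log2 CPM over all 7 libraries, Hlf followed the family sum with r = 0.86 and stood at rank 369 among 10273 coding genes of at least 5 CPM on average. The 5 genes most like the sum were Amigo2 (r = 0.99), Scml4 (0.98), Acadm (0.98), Neurl3 (0.98) and Ica1 (0.98). Over the 6 libraries other than WT 2 the 5 were Atp10a (0.999), Casp9 (0.99), Amigo2 (0.99), Fam120c (0.98) and Ica1 (0.98), and Hlf, at 0.90, stood at rank 99. Amigo2 and Ica1 were in both sets of 5. Amigo2 was at 3.55, 3.44 and 2.21 CPM in Srp72+/- 1, 2 and 3, against 5.66, 0.703, 5.47 and 16.05 CPM in WT 1, 2, 3 and 4, so that WT 2 was lowest and WT 4 highest, as for Gimap5 and Gimap6. These ranks come from a search over many genes in few libraries and are given as a description.

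T cell genes were the other yardstick, and the CD3 gate of the sort should remove T cells. Of the 14 T cell genes 12 were tested, 0 were called in either direction, 5 had a higher and 7 a lower fitted value in Srp72+/- cells, and their median log2 fold change was -0.36. Without WT 2 the median was 0.15. The list's leading gene was Lat, an adaptor of T cell and platelet receptors, with 2.24 CPM in WT 2 and 13.4 to 23.5 CPM in the other WT libraries. It was thus low in WT 2, as the HSC genes were. Without WT 2, however, its log2 fold change was 0.07, beside a median of -0.75 for the HSC genes. The next most abundant genes of the list, Cd247 and Lck, were at 6.91 and 4.99 CPM in WT 2. The summed level of the list was 26.6 to 43.2 CPM in Srp72+/- libraries and 42.6 CPM in WT 2, against 27.5 to 42.3 CPM in the other WT libraries. The defining T cell genes Cd3d, Cd3e, Cd3g and Trac together reached 8.68, 2.54 and 1.73 CPM in Srp72+/- 1, 2 and 3, against 1.91, 13.6, 3.84 and 5.62 CPM in WT 1, 2, 3 and 4. Cd3g was at 0 in WT 1, Trac was at 0 in Srp72+/- 3, and Cd5 was at 0 in Srp72+/- 1, WT 1, WT 3 and WT 4. These sums were highest in WT 2 and next highest in Srp72+/- 1. Gimap4 had nearly the same order of libraries, with WT 2 highest and WT 1 and Srp72+/- 3 lowest. Only neighbours in that order changed places, WT 4 with Srp72+/- 1 and Srp72+/- 2 with WT 3. The part of T cell transcripts in the Gimap values was not tested.

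Over the 6 libraries other than WT 2, the correlation of log2 CPM with the summed T cell list was -0.27 for Gimap6, -0.16 for Gimap5, -0.47 for Gimap8, -0.49 for Gimap1 and -0.18 for Gimap4, with an adjusted exact permutation p of at least 0.610 in these 5. Without Srp72+/- 2 and WT 1, the 2 libraries farthest from the median of the list, these were -0.84, -0.76, -0.55, -0.87 and -0.52, and rho over the 6 libraries was 0.086 for Gimap6, Gimap5 and Gimap4, so their size rests on which libraries are included. For Gimap7 r was 0.78 (exact permutation p = 0.0181, adjusted 0.167) and rho was 1 (exact permutation p = 0.00278, adjusted 0.0444). The Gimap7 values in those 6 libraries rest on 8 to 17 reads each, and r was 0.62 without the same 2 libraries and 0.76 within genotypes (exact permutation p = 0.139, adjusted 0.889). In each of the 6 libraries Lat was the largest single part of the summed list. It made up 25.9 of 41.7 CPM in Srp72+/- 3 and 13.1 of 43.2 CPM in Srp72+/- 1. The correlations with the list are therefore not a measure of T cells alone. Relations with Cd3d, Cd3e, Cd3g and Trac alone were not tested.

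**Figure D5:**
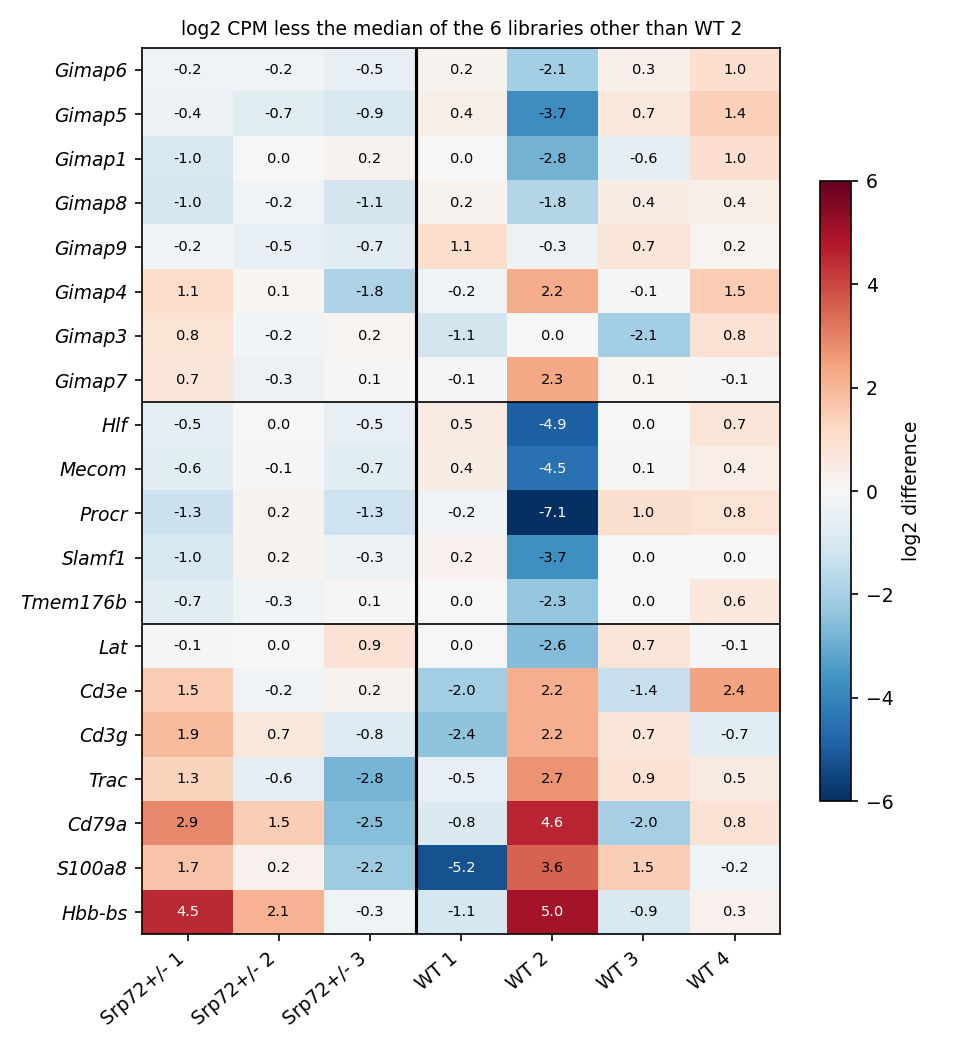
Each cell gives the log2 CPM (with 0.1 CPM added) of a gene in 1 library less its median over the 6 libraries other than WT 2. From top to bottom are the Gimap genes, HSC genes with the neighbour Tmem176b, and genes of T cells, B cells, neutrophils and red cells: in WT 2 Gimap6, Gimap5, Gimap1 and Gimap8 are blue with the HSC genes and Lat, and Gimap4 and Gimap7 are red with Cd3e, Cd79a, S100a8 and Hbb-bs.

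Genes that work with the family or resemble it were read in the same fit. Of 11 genes for partners and effectors of GIMAP proteins, such as Mcl1, a survival protein of the Bcl-2 family, Ctnnb1 (beta-catenin) and Gsk3b, its kinase, 0 were called, 3 were fitted higher and 8 lower in Srp72+/- cells, and the median log2 fold change was -0.26 (-0.21 without WT 2). Mcl1 was at 411, 447 and 246 CPM in Srp72+/- 1, 2 and 3, against 325, 460.4, 683 and 307 CPM in WT 1, 2, 3 and 4, and the groups overlapped. Of 15 other immune GTPase genes (IRG, GBP and Mx families, led by Tgtp2, Tgtp1 and Irgm2), 0 were called, 5 were fitted higher and 10 lower, with a median of -0.07 (-0.32 without WT 2). Of these 15, 11 were lower in WT 2 than in each other library, so a low level in WT 2 was not particular to the Gimap genes. Of 8 HSC genes (Hlf and Mecom among them) 0 were called, 2 were fitted higher and 6 lower, with a median of -0.35, and without WT 2 all 8 were fitted lower, with a median of -0.75. Of 7 endothelial genes (led by Pecam1, Tie1 and Tek) 0 were called, 3 were fitted higher and 4 lower, with a median of -0.14 (-0.54 without WT 2). Of 8 tested genes of early lymphoid priming (led by Ikzf1, Notch1 and Satb1) 0 were called and 4 were fitted in each direction, with a median of 0.01 (0.63 without WT 2). Of the 9 genes of this list, 7 were higher in WT 2 than in each other library. NK cell genes (5 tested, led by Nkg7) had a median of -0.24, B cell genes (4 tested, led by Cd79b) of -0.14, plasma cell genes (2 tested, led by Igha) of -0.39, neutrophil genes (6 tested, led by S100a9) of -0.96, red cell genes (6 tested, led by Hbb-bs) of 0.11 and monocyte genes (5 tested, led by Ly6c2) of -0.67, with 0 called in each. Without WT 2 the medians of these mature cell lists were all above 0, again with 0 called. They were 1.23 for NK cell genes (3 still tested, 2 fitted higher and 1 lower), 1.31 for B cell genes and 1.52 for plasma cell genes. For neutrophil genes the median was 0.80, for red cell genes 3.47 and for monocyte genes 0.91. In that fit Gimap5, Gimap6, Gimap8, Gimap9 and the HSC genes had lower values in Srp72+/- cells. The tested genes of these mature cell lists had higher ones, except for 1 NK cell gene. Srp72+/- 1 held the most red cell and neutrophil transcripts of the 6 libraries. Summed levels of NK cell genes were 49.8 to 88.6 CPM in Srp72+/- libraries and 193 CPM in WT 2, against 41.6 to 75.8 CPM in the other WT libraries. For B cell genes they were 17.1 to 31.2 CPM in Srp72+/- libraries and 51.4 CPM in WT 2, against 10.4 to 17.9 CPM in the other WT libraries. For monocyte genes they were 52.8 to 446 CPM in Srp72+/- libraries and 1090.2 CPM in WT 2, against 10.9 to 204 CPM in the other WT libraries. The part of these transcripts in the Gimap values was not tested.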

How the data were processed

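RNA of sorted LT-HSCs was measured in 3 Srp72+/- and 4 WT libraries, placed in groups by their genotype label. It was amplified, per the labels' protocols, with the Ovation RNA-seq V2 kit and sequenced from TruSeq V2 libraries. The authors deposited estimated counts, TPM values and effective lengths per transcript, made with Salmon 0.12.0 per the submitters' processing notes, which also name mm10 and GRCm38.p6. The transcript release, bias options and strand setting were not given in the sources used here. Because reads carry no molecular identifiers, count floors cover counting error only.

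Of 136288 transcripts, 136176 matched GENCODE M21. Estimated counts and TPM were summed per gene, and counts were rounded. The 7 libraries were compared in edgeR 4.0.16 (R 4.3.3) by its quasi-likelihood test (filterByExpr with minimum count 10 and total 15, TMM, robust, no covariate, Benjamini-Hochberg over 20314 genes, threshold 0.05). Fold changes are Srp72+/- over WT. The correlations used 720 pairings each and log2 of CPM plus 0.1, with Benjamini-Hochberg adjustment over 16 relations, and those within genotypes were added after seeing the data. A correlation p for the family sum was planned and is not given, since the sum is a score over the members. Alternatives were RLE scaling, DESeq2 1.42.0, other filters, a transcript length offset, a replicate block and left-out libraries. Counts of members at an unadjusted p and of groups that do not overlap without WT 2 were added after seeing the data. The procedure was tested on simulated data. Named genes were all members, Hlf, Srp72, the 3 most abundant genes of each list, the cluster's neighbours and the 5 genes most like the family sum. Cd3d, Cd3e, Cd3g, Trac, Cd5 and Slamf1 are named besides as defining markers. The values of 1 list gene are not reported here. The members and lists were chosen with earlier results of these data known.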

Additional observations from a re-analysis of the deposited data

Results flagged for a closer look

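In each of 11 measures the 4 WT libraries were searched for a value far from the others, by Dixon's ratio of the gap to the range on the log2 scale with 0.1 CPM added. The ratio exceeded its 95% critical value in 3 of them, and chance gives about 1 in 20. The ratio was 0.919 for Gimap7, where WT 2 was the highest library at 2.81 CPM, against 0.448 to 0.528 CPM in the other WT libraries. It was 0.904 for Gimap8, where WT 2 was the lowest at 9.78 CPM, against 39.6 to 45.9 CPM. It was 0.878 for Hlf, where WT 2 was the lowest at 13.2 CPM, against 408 to 657 CPM. The same library stood apart in all 3.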

How the results depend on the processing

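The count of Gimap genes called was 0 under each of 14 alternatives, and among the log2 fold changes of single members 103 kept their direction under an alternative and 5 did not. Gimap1 turned to 0.55 without WT 4 and to 0.16 without Srp72+/- 1. With a replicate block the median log2 fold change of the members was -0.24, against -0.83 without it, and Gimap1 (0.88), Gimap5 (0.028) and Gimap6 (0.18) changed direction. The replicate numbers did not pair the libraries: same-numbered libraries correlated between -0.316 and 0.0018 over 3 pairs, 0 of them over 0.1, and 0 of 3 Srp72+/- libraries correlated best with their own number. Replicate number 4 exists in WT only, so under the block WT 4 does not enter the genotype estimate. The cause of these changes was not tested. Leaving out 1 library at a time moved the median between -0.89 and -0.58 and Gimap1 between -0.46 and 0.55. Gimap8's mean share of the family was 17.8% in CPM and 7.66% in TPM, which corrects for its long transcript. The medians of the T cell and HSC lists under the alternatives were added after seeing the data. With 1 library left out they ranged between -0.92 and 0.15 for T cell genes and between -0.75 and 0.11 for HSC genes. With the replicate block the median was -0.59 for T cell genes and turned to 0.58 for HSC genes. Gimap7, at 8 to 44 reads, is limited by depth and could be tested in 10 of the 14. Adjusted p-values of the members stayed between 0.831 and 1 in every alternative.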
